A study of Mus musculus with 10 samples.

Results

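Eukaryotic translation initiation factors (eIFs), the proteins that bring a ribosome and the first tRNA to the start codon of an mRNA, were examined in RNA-seq of bone marrow cells. The factors were taken as the protein-coding mouse genes whose symbol starts with Eif1 to Eif6, without the eIF2 kinases (Eif2ak) and without the sex-linked pair Eif2s3x and Eif2s3y, which gave 67 of the 55359 genes in the table. Of these, 48 had a mean of at least 0.1 FPKM (fragments scaled to gene length and library depth) over all libraries and could be tested among 18742 genes. Another 18 were listed at 0 in every library, namely 16 genes of the Eif1ad-like cluster on chromosome 12, Eif4a3l1 and Eif4e1b. The remaining gene, Eif4a3l2, reached at most 0.05 FPKM.

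The libraries came from lineage-negative (Lin−) bone marrow cells, that is, cells left after depletion of those bearing markers of mature blood lineages. Both genotypes carry floxed Dhx9 alleles, with 5 libraries of Dhx9f/f mice (WT) and 5 of Dhx9f/f;MX1 mice (cKO), in which Cre recombinase is driven by the interferon-inducible Mx1 promoter, a promoter that is not confined to blood stem cells. By the study's general methods, mice with MX1-Cre received poly(I:C), an RNA mimic that induces interferon, in 3 doses and were examined 7 days after the first one. Whether the sequenced WT mice also received it is not stated in the sources used here, nor are the ages. In the text below, values in WT and in cKO are given in the order of replicates 1 to 5 of each label, and ± after a mean is the SD of 5 libraries.

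Some facts of the libraries bear on every result. The targeted gene Dhx9 was at 65.43 to 72.42 FPKM in WT and at 130.82 to 156.49 FPKM in the libraries labelled cKO, which goes against the label, so that every direction below rests on the labels. Xist, the noncoding RNA of the inactive X chromosome, was at 99.19 to 127.76 FPKM in WT replicates 3, 4 and 5 and at no more than 0.09 FPKM in the other 7 libraries. Ddx3y, a gene of the Y chromosome, was at 0.05 FPKM or less in WT replicates 3, 4 and 5 and at 19.66 to 38.53 FPKM in the other 7. By these 2 genes, WT replicates 3, 4 and 5 read as female and the other 7 libraries as male. Sex is thus partly confounded with the label. Depth read from the values was 15041500 to 18720000 fragments in WT and 13840500 to 17189500 fragments in cKO. The cell makeup also moved with the label. All 10 erythroid markers rose, and their summed level was 574 to 1510 FPKM in WT and 2010 to 3140 FPKM in cKO. All 9 monocyte and dendritic markers fell, from a summed level of 737 to 1310 FPKM to one of 3.95 to 202 FPKM, as did all 5 megakaryocyte markers (263 to 1220 against 77.9 to 178 FPKM), 5 of 6 stem and progenitor markers (113 to 155 against 33.2 to 64.5 FPKM) and 4 of 5 stromal and endothelial markers (19.2 to 26.0 against 0.82 to 5.57 FPKM). Falls were also found for 3 of 8 neutrophil markers (2200 to 3000 against 107 to 2320 FPKM), 3 of 6 T and NK markers (75.3 to 99.2 against 6.47 to 26.8 FPKM) and 2 of the 5 B-lymphoid markers tested of 7 listed (10.2 to 15.2 against 0.87 to 6.38 FPKM). The other neutrophil markers did not pass, with positive log2 fold changes for Ngp (1.43), Ltf (1.39) and Camp (0.98) and negative ones for S100a8 (-1.24) and S100a9 (-0.20). Nor did Cd3e (0.53), Cd3g (0.29) and Cd8a (-0.74) among the T and NK markers. Most of the T and NK sum was Nkg7, at 72.96 to 95.95 FPKM in WT and 6.30 to 24.95 FPKM in cKO. No marker was at 0 in every library. The part of these cells in the results below was not tested, and in bulk RNA fewer cells of a type cannot be told apart from less RNA per cell.

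Initiation in the cytoplasm follows a cycle. eIF2 carries the initiator tRNA to the small ribosomal subunit, where eIF1, eIF1A, eIF3 and eIF5 gather, while eIF4E, eIF4G and eIF4A bind the capped end of the mRNA and open its leader. After the start codon is found, eIF5B joins the large subunit and eIF2B reloads eIF2 with GTP. Red cell precursors are known for a high output of globin through this machinery, and phosphorylation of eIF2 is a classic brake on it in these cells.

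Most of the factors were higher in the libraries labelled cKO. At an adjusted p under 0.05 (limma, Benjamini-Hochberg over all genes tested), 35 of the 48 factors rose (72.9%) and 3 fell (6.2%), where 16.7% of all genes rose and 28.3% fell. Initiation factors are abundant, so the count was also taken where the mean reached 10 FPKM, and there 32 of 42 factors rose (76.2%) against 31.7% of 5512 genes, and 2 fell (4.8%) against 23.7%. The median log2 fold change of the 48 factors was 0.35, that of all genes tested -0.11. The rises were small. With a fold change of at least 2 as a further limit, 1 factor was higher, Eif2b3, and 1 was lower, Eif4e3, where 4.6% of all genes were called higher and 16.8% lower. All 5 libraries of one label stood above all 5 of the other in 24 factors that were higher in cKO (50%, against 10.6% of all genes) and in 3 that were higher in WT (6.2%, against 21.6%). The 3 factors that fell were Eif4e3, Eif4g3 and Eif4ebp2, which all act at the cap of the mRNA. The calls of 24 rises and of these 3 falls held under every setting tried, while 11 rises were lost under some setting, those of Eif1ad, Eif2b2, Eif2b4, Eif2d, Eif3a, Eif3f, Eif3h, Eif4a3, Eif4e, Eif4enif1 and Eif5a2. All 11 were lost when the 3 WT libraries with Xist were left out, where 24 factors rose and 3 fell. The fold changes of these 11 were of like size there, 0.18 to 0.71 on the log2 scale against 0.20 to 0.72 with all libraries, and the median of all factors was 0.40, in a comparison of 2 against 5 libraries.

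**Figure D1:**
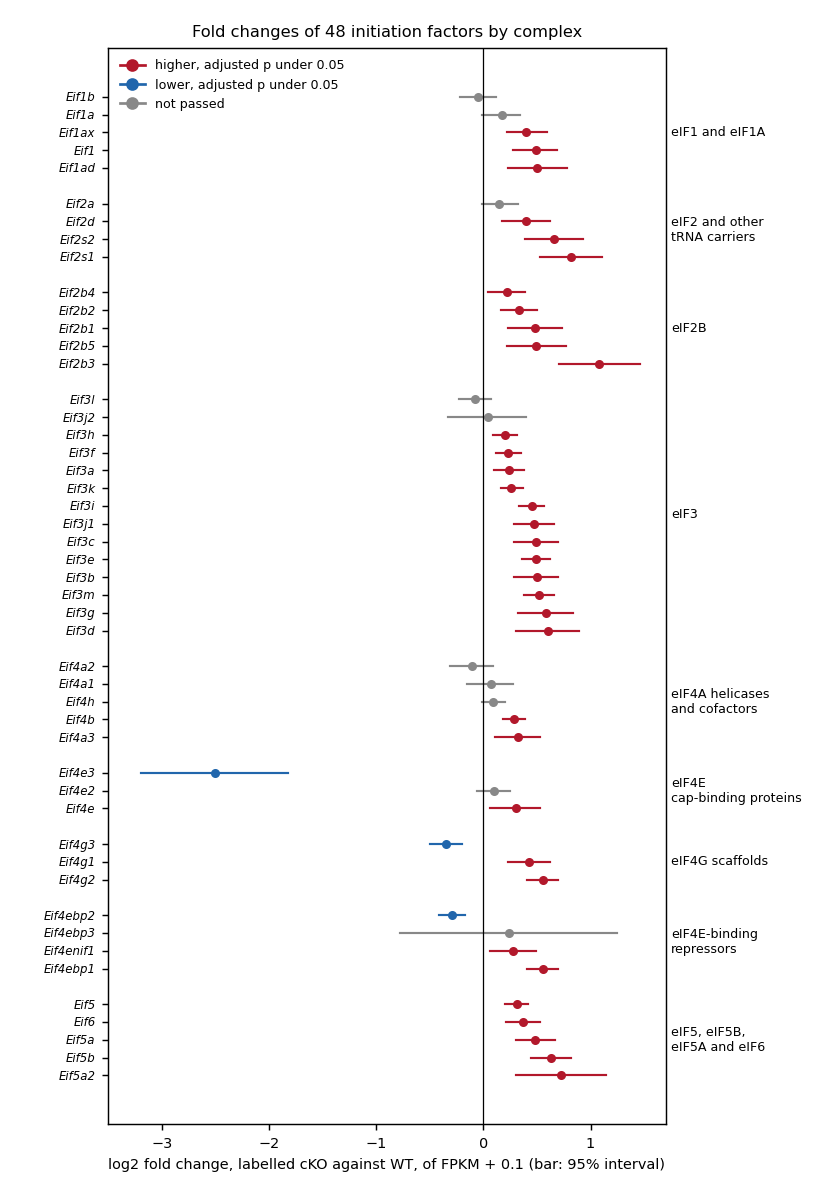
Log2 fold change of FPKM + 0.1 (horizontal axis, libraries labelled cKO against WT, 5 each) of the 48 tested factors, grouped by complex, with points for estimates and bars for 95% intervals from limma. Points of eIF2, eIF2B, eIF3 and the eIF5 group lie mostly right of 0, up to 1.08 for Eif2b3, and Eif4e3 lies far to the left at -2.50.

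Promoter sequences were read for 3 factors that show the extremes of these changes, Eif2b3 with the largest rise, Eif5a2 with the third largest rise and the most motif matches, and Eif4e3 with the largest fall. Each sequence holds the 250 bases before the start of the Ensembl canonical transcript on GRCm39, written 5′ to 3′ on the gene's own strand, with matches to the motifs named below in capitals. The window of Eif2b3 is chr4:116876338-116876587 (plus strand), that of Eif5a2 is chr3:28835111-28835360 (plus strand), and that of Eif4e3 is chr6:99643785-99644034 (minus strand). The windows of Eif2b3 and Eif4e3 overlap no annotated exon, whereas that of Eif5a2 lies under exons of a long noncoding RNA on the opposite strand.
Eif2b3: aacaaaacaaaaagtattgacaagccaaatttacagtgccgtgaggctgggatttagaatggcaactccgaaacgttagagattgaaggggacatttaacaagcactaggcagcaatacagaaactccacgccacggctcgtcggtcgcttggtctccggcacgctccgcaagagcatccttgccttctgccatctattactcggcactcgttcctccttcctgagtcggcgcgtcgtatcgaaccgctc
Eif5a2: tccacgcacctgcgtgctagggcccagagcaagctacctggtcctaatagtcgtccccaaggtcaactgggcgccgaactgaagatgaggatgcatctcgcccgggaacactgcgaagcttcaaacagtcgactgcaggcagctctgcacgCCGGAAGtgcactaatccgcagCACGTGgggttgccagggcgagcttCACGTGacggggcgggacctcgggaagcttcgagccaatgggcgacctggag
Eif4e3: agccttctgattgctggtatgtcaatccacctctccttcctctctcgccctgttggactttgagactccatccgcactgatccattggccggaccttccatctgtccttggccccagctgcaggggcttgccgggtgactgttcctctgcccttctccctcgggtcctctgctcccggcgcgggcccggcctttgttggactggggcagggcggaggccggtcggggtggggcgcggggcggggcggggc
The Eif5a2 window holds the E-box CACGTG at 77 and at 52 bases before the start and the ETS sequence CCGGAAG at 99 bases before it, whereas no searched motif was found in the other two. The E-box is the letters bound by Myc and Max and by related factors, and the ETS sequence those bound by a family that includes PU.1 and GABP.

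Over all 48 tested factors, the E-box lay in 6 windows (12.5%), against 6.6% of the windows of 18623 genes. These 6 were Eif1ad, Eif3f, Eif3k, Eif4g1, Eif5a and Eif5a2, and Eif4g1 and Eif5a2 held it at 2 places. All 6 were among the factors that rose, as were 35 of the 48 tested (72.9%), so no link to the rises is read from this. Eif1ad, Eif3f and Eif5a2 lost the call under some setting. The ETS sequence was in 8 windows (16.7%, against 8.1% of all genes), and these included Eif1b and Eif4e2, which did not pass, and Eif4ebp2, which fell. GAGGAAGT, the preferred letters of PU.1, was in those of Eif3m and Eif3j1 (4.2%, against 2.2%), and CGCATGCG, read by NRF1, in that of Eif3k alone (2.1%, against 1.7%). TGATGNAA, an amino acid response element read by ATF4, was in 1 window, that of Eif4ebp3 (2.1%, against 2.7%). The RUNX sequence TGTGGTTT was in none (0%, against 1.5%). Both strands were searched, CCGGAAG and GAGGAAGT share letters with other ETS sites, and a match is a description of letters and not of a bound site. The windows of the factors had a median of 17.5 CpG dinucleotides (range 4 to 30), against 9 over all genes. The E-box, ETS and NRF1 letters each hold CpG, and the part of CpG content in the shares above was not tested.

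eIF2 and the other carriers of initiator tRNA were examined first among the complexes. Of 4 members, 3 rose, with a median log2 fold change of 0.53. Eif2s1 encodes the alpha subunit of eIF2, which is phosphorylated under stress. Eif2s1 was at 33.62, 41.57, 51.80, 40.15 and 40.51 FPKM in WT and at 55.15, 80.79, 80.35, 78.19 and 72.50 FPKM in cKO. The groups did not overlap, and cKO replicate 1 lay closest to WT. Its mean went from 41.5 ± 6.54 to 73.4 ± 10.7 FPKM, a log2 fold change of 0.82 ± 0.13 (SE, limma adjusted p = 0.000552) or 1.77-fold. Up to 31.1% of its annotated exon bases are shared with Atp6v1d on the opposite strand, and the sources used here do not say whether strand was used in counting.

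Eif2s2, which encodes the beta subunit, moved much like Eif2s1. Its values were 25.66, 33.04, 41.21, 30.57 and 27.97 FPKM in WT and 42.08, 53.47, 52.66, 49.62 and 50.47 FPKM in cKO. WT replicate 3 was the highest of WT and just under cKO replicate 1, the lowest of cKO. The log2 fold change was 0.66 ± 0.121 (SE, limma adjusted p = 0.00125), or 1.58-fold. Eif2d, a separate protein that delivers tRNA without eIF2, was at 7.66 to 9.10 FPKM in WT and at 8.39 to 11.70 FPKM in cKO (log2 fold change 0.40, limma adjusted p = 0.00928). The 4 cKO replicates other than replicate 1 stood above all of WT. Eif2a, another alternative carrier despite its name, was at 24.77 to 30.03 and 26.32 to 32.25 FPKM and did not pass (log2 fold change 0.15, 95% interval -0.01 to 0.32, limma adjusted p = 0.118).

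All 5 subunits of eIF2B, the exchange factor that returns eIF2 to its GTP-bound form, rose, with log2 fold changes from 0.22 to 1.08 and a median of 0.48. Eif2b3 (ENSMUSG00000028683) encodes the gamma subunit, part of the catalytic core of the complex. Eif2b3 was at 4.09, 5.33, 8.22, 4.86 and 4.49 FPKM in WT and at 9.63, 11.82, 12.64, 11.20 and 10.93 FPKM in cKO. Every cKO library was above every WT library, and WT replicate 3 stood well above the other 4 of its label. The mean went from 5.40 ± 1.64 to 11.2 ± 1.12 FPKM, a log2 fold change of 1.08 ± 0.169 (SE, 95% interval 0.71 to 1.46, limma adjusted p = 0.00052) or 2.12-fold. Without WT replicate 1 the log2 fold change of Eif2b3 rounded to 1.0 from below and with a pseudocount of 1 FPKM it was 0.96, so that the 2-fold limit was missed in both cases. This is the gene whose 250 upstream bases, shown above, held none of the motifs.

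The 2 most abundant subunits were Eif2b5 and Eif2b1. Eif2b5, the catalytic epsilon subunit, was at 29.75, 36.16, 41.40, 35.55 and 31.13 FPKM in WT and at 36.50, 54.23, 52.58, 48.37 and 54.00 FPKM in cKO. Its groups overlapped through WT replicate 3 and cKO replicate 1, and the log2 fold change was 0.49 ± 0.125 (SE, limma adjusted p = 0.00801). Eif2b1, the regulatory alpha subunit, was at 25.21, 30.68, 38.39, 28.70 and 26.07 FPKM in WT and at 36.11, 45.44, 43.82, 42.09 and 39.16 FPKM in cKO. The same 2 libraries overlapped here, with a log2 fold change of 0.48 ± 0.114 (SE, limma adjusted p = 0.00542). Eif2b2, the beta subunit, rose by 0.33 on the log2 scale with no overlap (limma adjusted p = 0.00557), and Eif2b4, the delta subunit, by 0.22 with overlap (limma adjusted p = 0.0429).

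Genes that act on eIF2 but are outside the list moved in both directions. Of 9 (the gamma subunits, kinases, phosphatase subunits and Atf4), 4 rose and 1 fell, with a median log2 fold change of 0.18. Of all genes tested, 16.7% rose and 28.3% fell, and nothing particular to these 9 is read from their count. The 4 rises include that of Eif2s3y, which is no estimate for the genotype, as given below. Ppp1r15a, the stress-induced subunit that directs a phosphatase to eIF2, was at 8.09, 8.62, 12.53, 9.32 and 9.96 FPKM in WT and at 29.08, 29.71, 39.23, 26.52 and 21 FPKM in cKO. The groups were far apart, with a log2 fold change of 1.56 ± 0.163 (SE, limma adjusted p = 8.18e-05). Atf4, a transcription factor whose translation rises when eIF2 is phosphorylated, was at 67.06 to 88.77 FPKM in WT and at 76.76, 154.75, 179.68, 137.39 and 155.76 FPKM in cKO (log2 fold change 0.81, limma adjusted p = 0.00642). In cKO replicate 1 it lay within the WT range. Eif2s3y, the Y-linked gamma subunit, was at 33.90 and 21.65 FPKM in WT replicates 1 and 2, at 0.02 FPKM or less in the other 3 WT libraries and at 23.78 to 38.74 FPKM in cKO, so its fitted log2 fold change of 4.80 (limma adjusted p = 0.0388) follows the split of Xist and is no estimate for the genotype. The fall was that of Eif2ak3, which encodes the eIF2 kinase PERK (log2 fold change -0.79, limma adjusted p = 0.000561), and the fourth rise that of Ppp1r15b, the constitutive phosphatase subunit (0.39, limma adjusted p = 0.000419). Eif2s3x, the X-linked copy, did not pass (log2 fold change 0.15, limma adjusted p = 0.457).

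**Figure D2:**
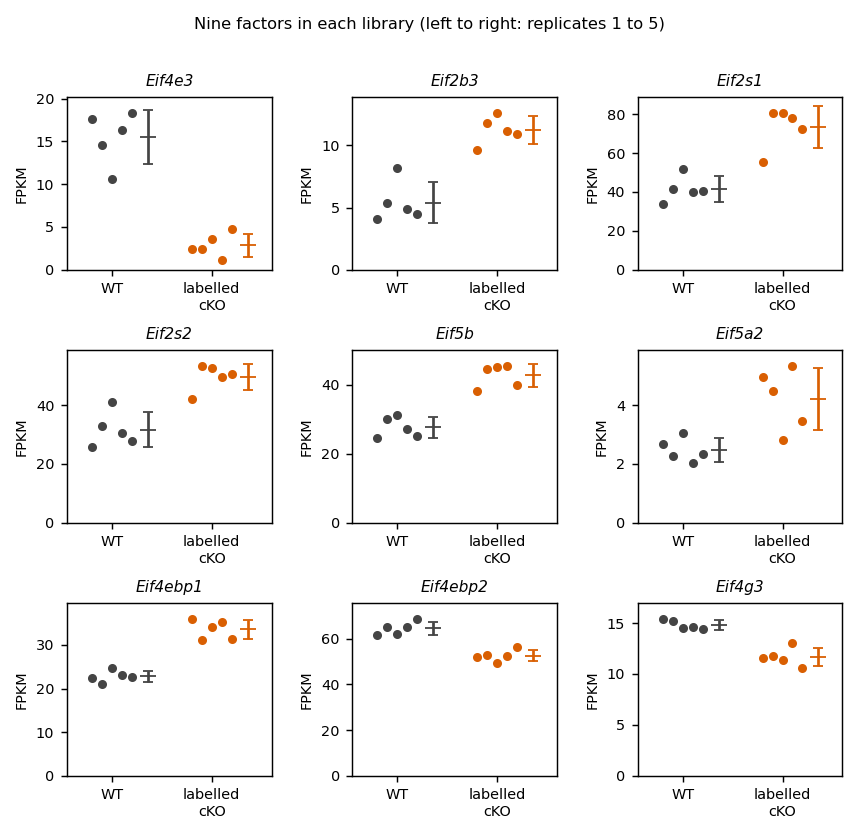
FPKM (vertical axes, each from 0) of 9 factors in each library, with the 5 WT replicates on the left of a panel and the 5 labelled cKO on the right, in the order of replicates 1 to 5, and bars for mean ± SD. The groups do not overlap in any panel but that of Eif5a2, where WT replicate 3 at 3.04 FPKM lies above cKO replicate 3 at 2.81 FPKM.

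eIF3 is the largest initiation complex and binds the small ribosomal subunit. Of its 14 genes, 12 rose and 0 fell, with a median log2 fold change of 0.46. The 2 that did not pass were Eif3j2 and Eif3l. The summed level of all 14 was 1077.0, 1184.4, 1234.0, 1163.6 and 1110.8 FPKM in WT and 1361.9, 1555.2, 1513.0, 1502.2 and 1489.9 FPKM in cKO, with no overlap. Eif3h, the most abundant, was at 186.98, 186.86, 180.77, 185.10 and 183.29 FPKM in WT and at 208.25, 217.93, 203.35, 225.69 and 204.74 FPKM in cKO. Its WT libraries lay close together and all under cKO, and the log2 fold change was 0.20 ± 0.0487 (SE, limma adjusted p = 0.00675). Eif3b, which encodes a scaffold subunit, was at 113.33, 143.71, 159.10, 137.48 and 121.21 FPKM in WT and at 173.88, 198.42, 197.00, 181.75 and 194.77 FPKM in cKO. The groups did not overlap either, and the log2 fold change was larger, 0.50 ± 0.0912 (SE, limma adjusted p = 0.0013).

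Eif3d, whose product can bind the cap of certain mRNAs, had the largest fold change of the complex. It was at 35.55, 46.20, 52.70, 39.77 and 38.29 FPKM in WT and at 48.17, 71.04, 74.42, 63.00 and 64.98 FPKM in cKO. WT replicate 3 was above cKO replicate 1, and the other 4 cKO libraries were above all of WT. The log2 fold change was 0.60 ± 0.135 (SE, limma adjusted p = 0.00431).

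The other subunits of eIF3 fell into an upper and a lower range of change. Between 0.45 and 0.58 were Eif3i, Eif3j1, Eif3c, Eif3e, Eif3m and Eif3g, with limma adjusted p from 0.000156 for Eif3i to 0.00255 for Eif3g. Between 0.23 and 0.26 were Eif3f, Eif3a, which encodes the largest scaffold subunit, and Eif3k, with limma adjusted p of 0.00433, 0.0108 and 0.00115. Of these 9, the groups overlapped in Eif3g, where WT replicate 3 was at 98.33 and cKO replicate 1 at 94.33 FPKM. Eif3l was at 65.29 to 75.38 FPKM in WT and at 60.81 to 73.41 FPKM in cKO (log2 fold change -0.08, 95% interval -0.23 to 0.07). Eif3j2, a near copy of Eif3j1 whose reads may be split with it, was at 3.38 to 4.87 and 3.48 to 6.04 FPKM (log2 fold change 0.04, 95% interval -0.33 to 0.40).

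Among eIF1 and eIF1A, which keep the small subunit open for scanning, 3 of the 5 tested genes rose and 2 did not pass. Eif1 was at 93.99, 111.01, 125.85, 113.80 and 108.22 FPKM in WT and at 130.84, 171.80, 152.83, 163.64 and 154.94 FPKM in cKO. The groups did not overlap (log2 fold change 0.49 ± 0.091, SE, limma adjusted p = 0.00145). Eif1b, its paralogue, was at 38.74, 47.92, 39.96, 45.70 and 42.61 FPKM in WT and at 36.61, 42.76, 44.70, 42.03 and 40.93 FPKM in cKO. Here the groups overlapped throughout and the log2 fold change was -0.05 (95% interval -0.22 to 0.12, limma adjusted p = 0.61). Eif1ax rose by 0.40 on the log2 scale (limma adjusted p = 0.00278) with no overlap, and its near copy Eif1a, on an autosome, had a log2 fold change of 0.17 (95% interval -0.01 to 0.34, limma adjusted p = 0.113). Eif1ad, which acts in maturation of the small subunit, was at 27.07 to 37.07 FPKM in WT and at 33.23 to 50.48 FPKM in cKO (log2 fold change 0.50, limma adjusted p = 0.00716). About 29.9% of its exon bases are shared with Banf1 on the opposite strand.

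The factors at the cap held the 3 falls. Of the eIF4A helicases, which unwind the leader of the mRNA, and their cofactors, 2 of 5 rose and the median log2 fold change was 0.09. Eif4b, a cofactor of eIF4A, was at 217.29, 218.92, 225.30, 222.97 and 214.18 FPKM in WT and at 261.09, 273.65, 258.31, 282.20 and 265.60 FPKM in cKO. Its spread within each label was narrow and the groups were apart, with a log2 fold change of 0.29 ± 0.048 (SE, limma adjusted p = 0.00076). Eif4a3, a helicase of the exon junction complex that sits outside initiation itself, was at 72.70, 86.39, 96.48, 84.40 and 79.49 FPKM in WT and at 88.87, 112.78, 119.89, 99.20 and 103.73 FPKM in cKO. Its groups overlapped through WT replicate 3 and cKO replicate 1 (log2 fold change 0.32 ± 0.0953, SE, limma adjusted p = 0.0179). The helicases of initiation did not pass, Eif4a1 with 0.07 (95% interval -0.15 to 0.28) and Eif4a2 with -0.11 (95% interval -0.31 to 0.09) on the log2 scale, nor did the cofactor Eif4h with 0.09 (95% interval -0.01 to 0.20).

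Of the 3 tested cap-binding proteins, Eif4e rose, Eif4e3 fell and Eif4e2 did not pass. Eif4e3 (ENSMUSG00000093661, chr6:99602081-99643784, minus strand) encodes a cap-binding protein of the eIF4E family. Eif4e3 was at 17.66, 14.60, 10.57, 16.34 and 18.37 FPKM in WT and at 2.47, 2.41, 3.54, 1.17 and 4.75 FPKM in cKO. The groups were far apart, WT replicate 3 being the lowest of WT and cKO replicate 5 the highest of cKO. The mean went from 15.5 ± 3.11 to 2.87 ± 1.35 FPKM, a fall of 2.50 ± 0.312 on the log2 scale (SE, limma adjusted p = 0.000166) or 5.67-fold. The lowest value, in cKO replicate 4, stands for about 50 fragments.

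Summed markers of several cell types shared part of the order of libraries with Eif4e3. Those of monocytes and dendritic cells were at 1312.4, 781.0, 736.7, 1078.0 and 1303.2 FPKM in WT and at 45.4, 13, 128.9, 4.0 and 202.4 FPKM in cKO. In cKO both they and Eif4e3 were highest in replicate 5, followed by 3, 1, 2 and 4, and in WT both were lowest in replicate 3. The summed B-lymphoid and stromal and endothelial markers had the same order in cKO (6.4, 6.2, 2.3, 1.2 and 0.9 FPKM, and 5.6, 3.9, 3.5, 1.6 and 0.8 FPKM, from replicate 5 down to 4) and were also lowest in WT replicate 3. So were the stem and progenitor markers, with replicates 2 and 4 of cKO level at 33.2 FPKM. For Eif4e3, cKO replicates 1 and 2 were nearly level, at 2.47 and 2.41 FPKM. The highest WT library differed. It was replicate 5 for Eif4e3 and the stem and progenitor markers and replicate 1 for the monocyte and dendritic markers. For the B-lymphoid and the stromal and endothelial markers it was replicate 2. The order in cKO is therefore not particular to 1 cell type, and the part of these cells in the change of Eif4e3 was not tested.

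Eif4e, the main cap-binding protein, was at 26.16, 34.40, 37.04, 30.02 and 27.30 FPKM in WT and at 32.65, 40.64, 41.25, 36.13 and 39.06 FPKM in cKO. The groups overlapped, and the log2 fold change of 0.30 ± 0.107 (SE, limma adjusted p = 0.0406) was close to the limit of the test, which it missed in 7 of the 10 fits that left out 1 library (adjusted p up to 0.0968). Eif4e2, a cap-binding protein that represses translation, was at 13.30, 15.19, 15.82, 15.52 and 14.49 FPKM in WT and at 15.29, 16.36, 16.86, 14.65 and 16.41 FPKM in cKO. Its groups overlapped and it did not pass (log2 fold change 0.10, 95% interval -0.06 to 0.25, limma adjusted p = 0.279).

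The 3 scaffolds of the eIF4G family, which bridge the cap complex and the ribosome, did not move together. Eif4g1, the main scaffold, was at 97.23, 122.20, 132.91, 105.90 and 100.12 FPKM in WT and at 138.90, 155.48, 147.21, 151.15 and 154.57 FPKM in cKO. It rose with no overlap (log2 fold change 0.43 ± 0.0883, SE, limma adjusted p = 0.0025). Eif4g2, a scaffold that cannot bind eIF4E and serves cap-independent initiation, was at 123.68, 134.27, 138.04, 130.07 and 118.11 FPKM in WT and at 178.52, 205.71, 185.88, 202.25 and 177.20 FPKM in cKO. It also rose with no overlap, by 0.56 ± 0.066 (SE, limma adjusted p = 0.000131). Eif4g3, a close relative of Eif4g1, was at 15.45, 15.19, 14.48, 14.62 and 14.39 FPKM in WT and at 11.53, 11.72, 11.41, 13.02 and 10.54 FPKM in cKO. All cKO libraries were below all WT libraries, and it fell by 0.35 ± 0.0682 on the log2 scale (SE, limma adjusted p = 0.00187).

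Repressors that hold eIF4E away from eIF4G also moved apart. Eif4ebp1, a 4E-BP released from eIF4E when mTOR phosphorylates it, was at 22.42, 21.09, 24.77, 23.00 and 22.74 FPKM in WT and at 36.06, 31.18, 34.05, 35.16 and 31.38 FPKM in cKO. It rose with no overlap, from 22.8 ± 1.32 to 33.6 ± 2.21 FPKM (log2 fold change 0.56 ± 0.0651, SE, limma adjusted p = 0.000129). Eif4ebp2, another 4E-BP, was at 61.69, 65.11, 61.85, 65.12 and 68.83 FPKM in WT and at 51.92, 53.03, 49.32, 52.43 and 56.48 FPKM in cKO. It fell with no overlap, from 64.5 ± 2.93 to 52.6 ± 2.57 FPKM (log2 fold change -0.29 ± 0.0545, SE, limma adjusted p = 0.00137). Eif4enif1, which carries eIF4E into the nucleus and to RNA granules, rose by 0.28 (limma adjusted p = 0.039) with overlap. Eif4ebp3 was at 0.33 to 1.62 FPKM, with about 8 fragments in its lowest library, and did not pass (log2 fold change 0.24, 95% interval -0.78 to 1.25).

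All 5 of the eIF5 group (Eif5, Eif5a, Eif5a2, Eif5b and Eif6), which is a group by name and not by step, rose. Their median log2 fold change was 0.48. Eif5a, the hypusine-bearing factor that aids peptide bond formation and the most abundant of all the factors in FPKM, was at 399.09, 491.16, 511.61, 500.24 and 466.16 FPKM in WT and at 580.99, 702.37, 649.84, 683.47 and 685.00 FPKM in cKO. The groups did not overlap (log2 fold change 0.48 ± 0.0843, SE, limma adjusted p = 0.00097). Eif5, which triggers GTP hydrolysis by eIF2, was at 66.29, 72.00, 73.68, 68.24 and 67.22 FPKM in WT and at 84.99, 86.87, 89.41, 82.60 and 88.02 FPKM in cKO. Its groups were apart as well (log2 fold change 0.31 ± 0.0502, SE, limma adjusted p = 0.000587). Eif5b, the GTPase of subunit joining, was at 24.48, 30.02, 31.23, 27.28 and 25.13 FPKM in WT and at 38.18, 44.57, 45.17, 45.56 and 39.97 FPKM in cKO. With no overlap, it rose by 0.63 ± 0.0852 on the log2 scale (SE, limma adjusted p = 0.000249), or 1.55-fold.

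Eif5a2, the low paralogue of Eif5a whose promoter is shown above, was at 2.69, 2.27, 3.04, 2.03 and 2.33 FPKM in WT and at 4.96, 4.47, 2.81, 5.34 and 3.44 FPKM in cKO. Its cKO libraries were uneven, and replicate 3 lay within the WT range. The log2 fold change was 0.72 ± 0.19 (SE, limma adjusted p = 0.00993), or 1.65-fold. Eif6, which keeps the ribosomal subunits apart, was at 30.01 to 34.71 FPKM in WT and at 36.96 to 47.36 FPKM in cKO (log2 fold change 0.37, limma adjusted p = 0.00181). Dhps and Dohh, the 2 enzymes that make hypusine on eIF5A, both rose by 0.41 (limma adjusted p = 0.0136 and 0.00318).

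**Figure D3:**
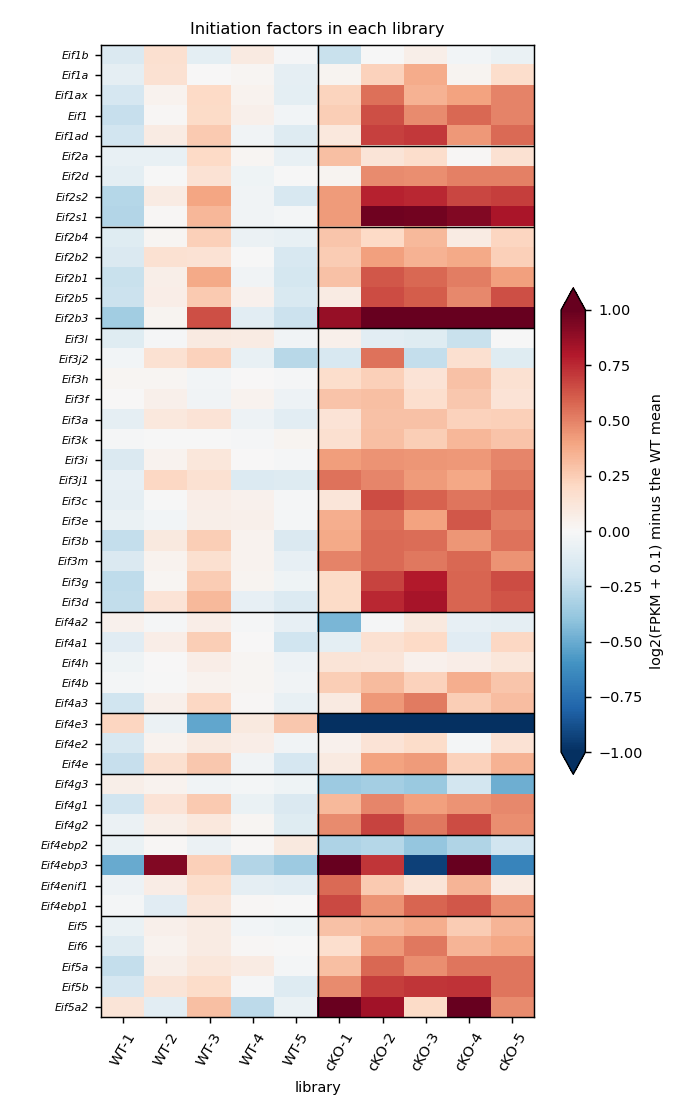
Log2(FPKM + 0.1) minus the WT mean of the same gene (colour, limited to -1 and 1) for the 48 tested factors (rows, by complex) in the 10 libraries (columns). WT-1 is blue and WT-3 red in most rows, cKO-1 is paler than the other libraries labelled cKO, and Eif4e3 runs against the rows around it.

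Within a label, many factors were highest or lowest in the same library. WT replicate 3 had the highest WT value in 37 of the 48 factors and WT replicate 1 the lowest in 30. Such counts were not made over all genes, so nothing particular to the factors is read from them. Summed over the 48 factors, the level was 2950.5, 3314.7, 3494.3, 3255.1 and 3086.6 FPKM in WT and 3743.7, 4334.6, 4188.9, 4175.3 and 4148.3 FPKM in cKO. Every cKO sum was above every WT sum, and the factors took 0.975% to 1.133% of all FPKM in WT and 1.198% to 1.375% in cKO. WT replicate 3 also had the highest summed erythroid markers of WT, 1513.7 FPKM against 573.9 to 870.4 in the other 4. In replicates 2 to 5 of each label the erythroid sums had the same order as the sums of the factors. These erythroid sums were 733.4, 1513.7, 711.5 and 573.9 FPKM in WT and 3062.1, 2960.2, 2718.3 and 2006.7 FPKM in cKO. Replicate 1 stood apart in both labels, with the lowest sum of the factors beside an erythroid sum of 870.4 FPKM in WT and 3141.6 FPKM in cKO. In cKO, replicate 1 had the highest erythroid sum and the lowest cKO value in 26 factors. Its neutrophil marker sum of 2317.0 FPKM was also unlike the 107.3 to 894.3 FPKM of the other cKO libraries. The part of these cells in the level of the factors was not tested.

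Ratios of related factors within a library do not depend on the scaling of libraries, and 11 were compared. By exact permutation tests (two-sided, Benjamini-Hochberg over the 11), 4 passed, each with p = 0.00794, the smallest that 5 against 5 libraries allow, and an adjusted p of 0.0218. The groups did not overlap in any of these 4. Without the 3 WT libraries with Xist none of the 4 passed (adjusted p = 0.21, exact permutation test), since 2 against 5 libraries cannot go below p = 0.0952. Eif4e3 to Eif4e went from a log2 ratio of -1.01 ± 0.52 to -3.81 ± 0.68, a difference of -2.80. Eif4ebp2 to Eif4ebp1 went from 1.5 ± 0.12 to 0.65 ± 0.15, so that the 4E-BP2 transcript was 2.82 times the level of 4E-BP1 in WT and 1.57 times in cKO, in FPKM. Eif4g3 to Eif4g1 went from -2.89 ± 0.21 to -3.67 ± 0.13, and Eif1b to Eif1 from -1.36 ± 0.17 to -1.90 ± 0.09. In all 4 the member whose share fell differed from its partner in the direction of change or did not pass by itself.

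The other 7 ratios did not pass. Eif3j2 to Eif3j1 differed by -0.44 on the log2 scale (exact permutation test, adjusted p = 0.0698), Eif1ax to Eif1a by 0.24 and Eif4e2 to Eif4e by -0.20 (adjusted p = 0.0873 each, exact permutation test). Eif4a2 to Eif4a1 differed by -0.18 and Eif4g2 to Eif4g1 by 0.13 (adjusted p = 0.116 each, exact permutation test). Those of Eif4ebp1 to Eif4e (0.26) and Eif5a2 to Eif5a (0.24) had adjusted p of 0.131 and 0.317 in the exact permutation test.

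**Figure D4:**
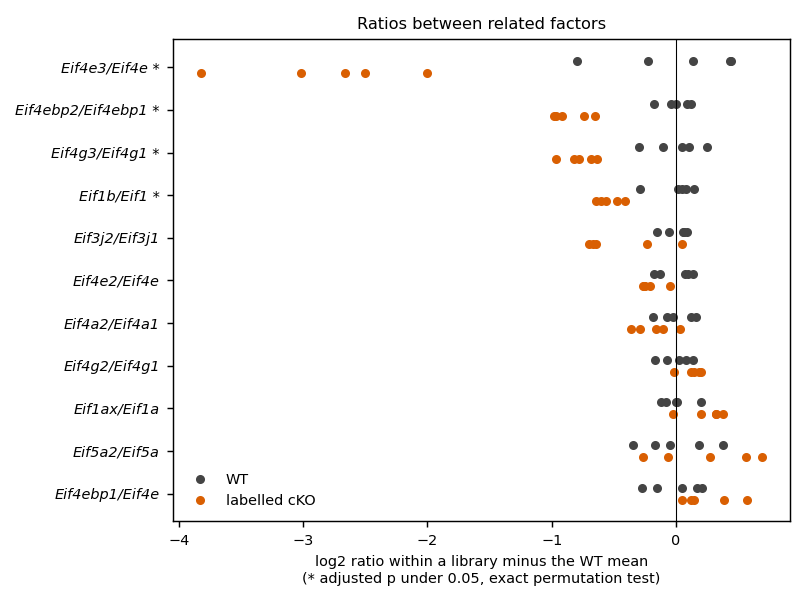
Log2 ratio of 2 related factors within each library minus the WT mean of that ratio (horizontal axis), with dark points for 5 WT libraries and orange points for the 5 labelled cKO. In the upper 4 ratios, marked with a star, the points of the labels do not overlap, and in the other 7 they do.

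Other genes of translation were counted by list, beside the 16.7% of all genes that rose and the 28.3% that fell, and nothing particular to a list is read from its count. Of 11 genes of mTOR and MNK signalling, which acts on 4E-BPs and eIF4E, 3 rose and 1 fell, with a median log2 fold change of 0.04. The fall was that of Pdcd4, an inhibitor of eIF4A, from 93.6 ± 16.0 to 56.4 ± 13.7 FPKM (log2 fold change -0.75, limma adjusted p = 0.00477), and Larp1, which binds mRNAs of the translation machinery, and Rptor, a subunit of mTOR complex 1, rose by 0.49 and 0.47, as did Tsc2, an inhibitor of that complex, by 0.37. Of 10 poly(A)-binding and helper factors, 5 rose and 2 fell, with a median of 0.15. Pabpc4, a poly(A)-binding protein, rose by 0.72 (limma adjusted p = 0.000691), Denr, which recycles the small subunit, by 0.61 and Abce1, which splits ribosomes, by 0.52. The helicase genes Dhx29 and Ddx3x rose by 0.36 and 0.27, and Paip1, a partner of poly(A)-binding protein, fell by 0.22 on the log2 scale (limma adjusted p = 0.0106). Denr and its partner Mcts1 moved in opposite directions, since Mcts1 fell by 0.40 on the log2 scale (limma adjusted p = 0.00134). Of 7 elongation genes, 4 rose and 1 fell, and the fall was that of Eef2k, the kinase that inhibits elongation factor 2 (log2 fold change -0.50, limma adjusted p = 0.00168), while Eef2 itself rose by 0.39, Eef1e1 by 0.42, Eef1g by 0.29 and Eef1b2 by 0.18. Of 3 termination genes, Etf1, the release factor that reads stop codons, and Gspt1 rose, by 0.62 and 0.30, and Gspt2 did not pass.

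Some values may hold reads of other genes. In 11 factors at least 25% of annotated exon bases are shared with another gene, 10 of them with a gene on the opposite strand, and these include Eif1 (39.1%), Eif3d (32.5%), Eif5a (31.8%) and Eif2b1 (31.5%). No exon base is shared in 16 factors, among them Eif2b3, Eif2s2 and Eif4ebp2. Eif4e3 shares 13.8% with a gene model on its own strand.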

How the data were processed

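Lin− bone marrow cells labelled WT or cKO were sequenced in paired-end mode, with 5 libraries per label. According to the methods and the submitters' processing notes, adapters and reads of quality under 20 were removed (cutadapt 1.9.1 is listed), reads were aligned to GRCm39 with HISAT2 2.0.1, and HTSeq 0.6.1 is listed for counting. The file the authors deposited gives FPKM for every gene, to 2 decimals, in 1 column per library. The annotation, the gene lengths and the use of strand are not given in the sources used here.

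Identifiers were matched to symbols through the GENCODE annotation of GRCm39, and all 67 factors matched. Since FPKM are not counts, log2(FPKM + 0.1) of the 18742 genes averaging 0.1 FPKM or more was fitted with limma 3.58.1 in R 4.3.3 (lmFit, eBayes with a trend, two-sided, Benjamini-Hochberg over all genes). Fold changes are on this scale, which understates those of low genes. A gene passed at an adjusted p under 0.05, and "rose" or "fell" is used for genes that passed. The study's further limit of a 2-fold change is given beside it. Ratios were compared with exact permutation tests in Python 3.11.15 with scipy 1.17.1.

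Depth was read from low values of genes with 1 transcript, of which 96.6% to 97.3% were whole fragments within 0.2. Fragment numbers of single genes are approximate and cover counting error only. No pair of libraries within a label agreed within sampling noise (chi-square per degree of freedom at least 3.98). By the study's general methods, replicates are individual mice. The labels of these libraries do not say so, and if they are not, p-values measure only the spread between libraries.

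All tested factors are named, and values in every library are given for those that passed with a fold change of at least 1.5, for the 2 most abundant of each complex and for both genes of a ratio that passed. Of each further list, up to 3 genes are named by rank of log2 fold change, and others that complete a count were chosen after their values were seen. The members, the lists from general knowledge and the tests were chosen with earlier results of these data known. Complexes and lists are described by counts and medians without a test. The gene-wise fit was tried on simulated data with changes added to a small part of 18142 genes, drawn at random. It found 32 of 100 changes of 0.5 on the log2 scale, 39 of 50 of 1 and 47 of 50 of 2. In the real data a far larger share of genes passed (16.7% rose and 28.3% fell), which makes the adjusted limit less strict than in the simulation. The simulated numbers are therefore no measure of the power for the factors. A gene that did not pass may still have changed.

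As alternatives, the pseudocount was set to 0.01 or 1 FPKM, the filter was dropped or raised to 1 FPKM, and libraries were scaled by median ratios, to equal sums or by quantiles. The trend was left out, the replicate number was entered as a block, each library was left out in turn, and the WT libraries with Xist above 1 FPKM were left out or given a term.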

Additional observations from a re-analysis of the deposited data

Results flagged for a closer look

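In each factor, ratio and label, the library farthest from the other 4 was compared with Dixon's limit for 5 values (a gap of more than 0.71 of the range). Of 118 such groups, 4 held a distant library, where chance gives 5.9, and 3 of the 4 were in cKO replicate 1. Eif2d was at 8.39 FPKM in it against 11.38 to 11.70 FPKM in the other libraries labelled cKO. Eif3c was at 145.27 FPKM in the same library against 193.46 to 209.77 FPKM. The log2 ratio of Eif4e2 to Eif4e was -1.09 in it against -1.31 to -1.25. The other distant value was Eif3k in WT replicate 5, at 82.33 FPKM against 80.05 to 80.55 FPKM, a gap of under 2 FPKM. In all of these but Eif3k the distant library lay on the side of the WT values.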

How the results depend on the processing

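Under 21 alternatives of the gene-wise fit, 27 of the 38 factors that passed kept their call in every one (24 higher and the 3 lower), and 24 to 39 factors rose and 3 or 4 fell. The fewest rose without the 3 WT libraries with Xist above 1 FPKM (24), which leaves 2 against 5 libraries, then with a term for Xist (28) and with quantile normalization (29). Calls were lost somewhere for Eif1ad, Eif2b2, Eif2b4, Eif2d, Eif3a, Eif3f, Eif3h, Eif4a3, Eif4e, Eif4enif1 and Eif5a2; Eif2b4, Eif4e and Eif4enif1 lost it with most single libraries left out, with limma adjusted p from 0.0525 to 0.097. The number with a 2-fold rise was 0 with a pseudocount of 1 FPKM, 2 with quantile normalization and 0 to 1 with each library left out, 0 being without WT replicate 1. Median-ratio scaling brought the median over all factors to 0.45 (log2), that of eIF3 to 0.57, of eIF4A to 0.20, of eIF4E to 0.20, of eIF4G to 0.54 and of the eIF5 group to 0.59, and quantile normalization moved that of eIF4A to 0.01 and of eIF4G to 0.34, while the median of all genes went from -0.11 to -0.01 and to 0.10. Signs that turned were all of factors that had not passed, namely Eif1b (0.05) and Eif3l (0.03) with median-ratio scaling, Eif4a1 (-0.03) with quantile normalization, and Eif3j2 with an equal sum (-0.0048), without the WT libraries with Xist (-0.03) and with the Xist term (-0.03). With each library left out, Eif3j2 lay between -0.09 and 0.10. The cause of these shifts was not tested.

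Without the WT libraries with Xist, the differences of the 4 ratios that passed were -0.65 (Eif1b to Eif1), -0.85 (Eif4g3 to Eif4g1), -2.91 (Eif4e3 to Eif4e) and -0.89 (Eif4ebp2 to Eif4ebp1), at an adjusted p of 0.21 in exact permutation tests whose smallest p is 0.0952. With the replicate number as a block they were -0.54, -0.78, -2.80 and -0.85, at an adjusted p of 0.138 where 5 pairs allow no p under 0.0625. The block gave 34 factors that rose and 3 that fell. Correlations of same-numbered WT and cKO libraries were 0.117, 0.026, -0.01, -0.003 and 0.093 for numbers 1 to 5. The highest of each WT library with a cKO library of another number were 0, 0.013, 0.067, 0.021 and 0.034. The same number thus gave the higher value for numbers 1, 2 and 5 and the lower for 3 and 4. These values do not settle whether the numbers pair the samples. With each library left out, Eif4e2 to Eif4e was -0.24 to -0.17 and passed without cKO replicate 1 (-0.24), and Eif3j2 to Eif3j1 was -0.56 to -0.37 and passed without cKO replicate 2 (-0.56). Depth limits the lowest factors, Eif4ebp3 with about 8 fragments in its lowest library.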
